A study of Arabidopsis thaliana with 16 samples.

Results

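AT2G46220 is a protein-coding gene of Arabidopsis thaliana whose transcript was measured by probe 185, 1 of 3439 probes on an expression array, and it was 1 of 691 genes with a probe of their own. The gene was picked because its probe was bright in the ppi2 mutant and much dimmer in the wild type (WT). It was thus chosen by its measured levels and ranks in all samples of both genotypes, which are given as a description, without a test. The series held 8 samples of the ppi2 mutant and 8 of WT, in the ecotype Wassilevskija throughout, and neither tissue nor age, growth conditions or batch are given in the labels. Samples with consecutive numbers (1 and 2, 3 and 4, and so on) resembled each other most within their genotype for all 16 samples, and each such pair was averaged and counted as 1 replicate, which left 4 replicates per genotype. Nothing in the labels says which samples came from separate plants, so the p-values refer to the spread between averaged pairs, which may be technical.

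Most chloroplast proteins are encoded in the nucleus, made in the cytosol as precursors and imported through translocons in the envelope membranes. In ppi2 the receptor Toc159 of the outer-envelope translocon is missing, and its seedlings are known to be albino. Chloroplasts whose development is impaired are also known to alter the transcription of nuclear genes, so transcript levels in such a mutant are of interest. For AT2G46220 itself the RefSeq table of the assembly TAIR10.1 gives a position on chromosome 2 and a clone-based synonym, T3F17.13, but no descriptive symbol, and no function is assigned to it here.

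As deposited, the intensity of AT2G46220 was 47.9, 45.0, 33.8, 34.2, 33.2, 37.8, 34.4 and 34.2 in ppi2 samples 1 to 8, on a scale that ended at 100. In WT samples 1 to 8 it was 2.52, 1.68, 2.63, 2.82, 1.64, 1.43, 0.971 and 1.04. The lowest ppi2 sample was 11.7-fold above the highest WT sample, and the most distant samples were 49.3-fold apart. The ppi2 samples lay within 1.44-fold of each other, with samples 1 and 2 above the remaining 6, whereas the WT samples spread over 2.91-fold. No sample of either genotype was listed at 0, and none was at the ceiling of the scale.

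The deposited WT values were 1.68 to 2.82 in samples 1 to 4 and 0.971 to 1.64 in samples 5 to 8, with samples 2 and 5 close to each other at 1.68 and 1.64. The median intensity over all probes was also higher in WT samples 1 to 4, at 0.198 to 0.212, than in samples 5 to 8, at 0.0976 to 0.124. Expressed as a multiple of the sample median, AT2G46220 stood at 126 to 207 in ppi2 and at 8.48 to 13.4 in WT. On that scale WT samples 5 to 8, at 9.95 to 13.4, overlapped WT samples 1 to 4, at 8.48 to 13.3. The gene contributed 0.941% to 1.60% of the summed intensity of a ppi2 sample and 0.0572% to 0.0921% of that of a WT sample.

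**Figure D1:**
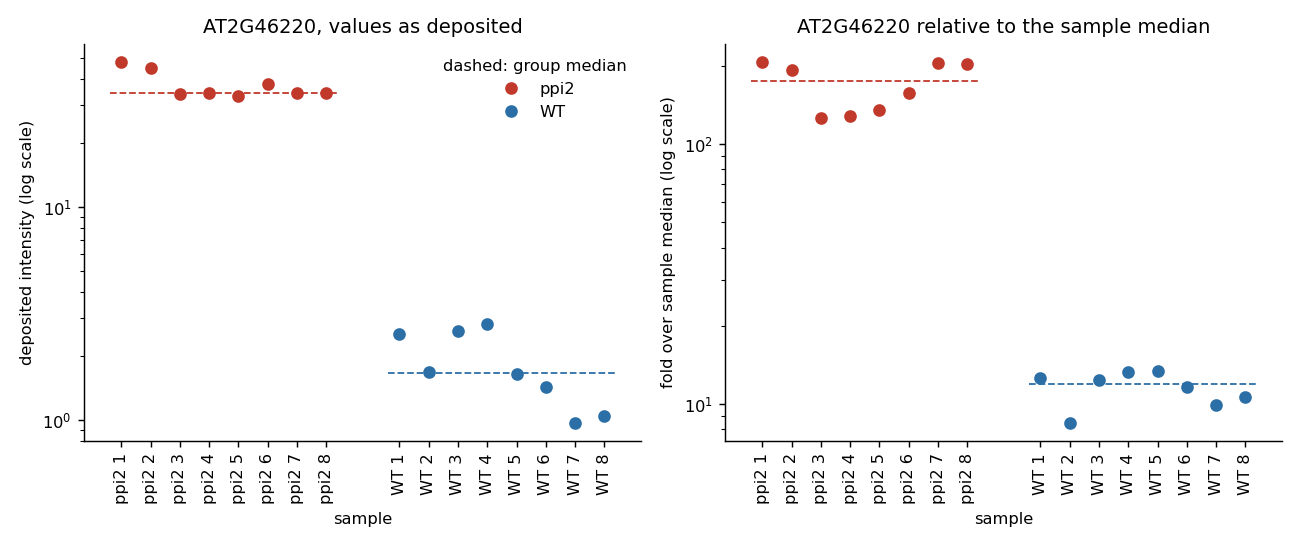
Intensity of AT2G46220 in each of the 16 samples as deposited (left, arbitrary units) and as a multiple of the median of all probes in the sample (right), both on log axes. Points are samples, ppi2 in red and WT in blue, and dashed lines are group medians. The ppi2 samples lie at 33.2 to 47.9 and the WT samples at 0.971 to 2.82 as deposited, and WT samples 5 to 8 stand below samples 1 to 4 on the left but not on the right.

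Ranks within a sample do not change with any scaling that keeps the order of probes. AT2G46220 ranked 6, 6, 13, 12, 11, 10, 10 and 11 among the 3439 probes in ppi2 samples 1 to 8, where 1 is the brightest. It ranked 151, 221, 175, 162, 159, 175, 176 and 172 in WT samples 1 to 8. The median rank was 10.5 in ppi2 and 173.5 in WT, a move of 163 places, and the ranks of the genotypes did not overlap. Every WT sample still placed the gene above at least 93.6% of the probes, so its signal was clear in WT as well. A rank also depends on how well each probe hybridizes, so it places the signal of this probe and is no measure of transcript copies relative to other genes.

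**Figure D2:**
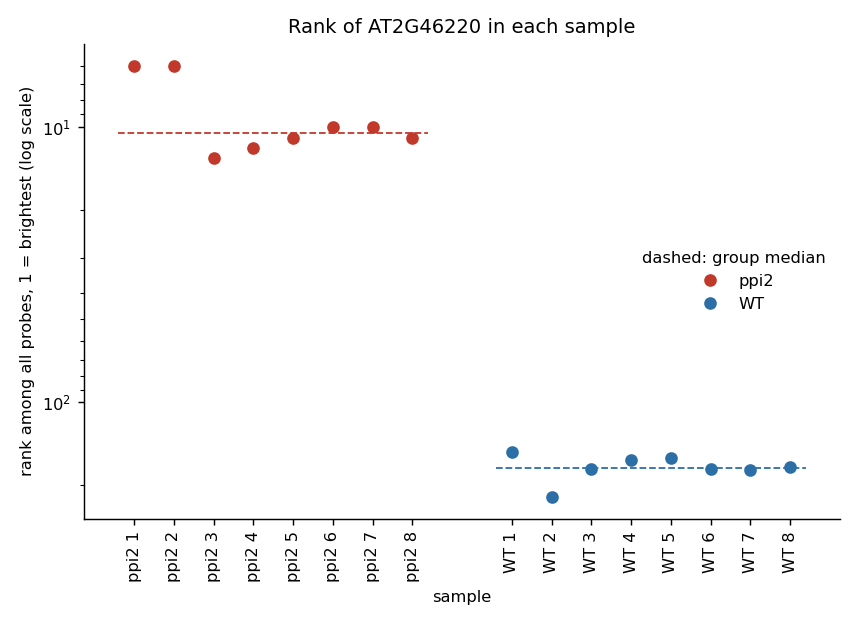
Rank of AT2G46220 among all 3439 probes in each sample (log axis, inverted, 1 is the brightest probe). Points are samples, ppi2 in red and WT in blue, and dashed lines are the group medians of 10.5 and 173.5. WT sample 2, at rank 221, is the lowest of all.

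After quantile normalization, which gives every sample the same distribution of values, AT2G46220 had a normalized intensity of 62.1, 30.3, 35.4 and 35.4 in ppi2 pairs 1 to 4. It had 2.18, 2.34, 2.37 and 2.27 in WT pairs 1 to 4. The geometric means were 39.2 in ppi2 and 2.29 in WT, a 17.1-fold difference. On the log2 scale the level was 5.29 ± 0.46 in ppi2 and 1.19 ± 0.05 in WT (SD, n = 4 pairs each), and the difference was 4.10 ± 0.22 (SE of the limma fit). The lowest ppi2 pair was 12.8-fold above the highest WT pair. The pairs of the genotypes did not overlap in 32.2% of all probes, and 28.6% of all probes passed the test, 14.2% as higher in ppi2 and 14.4% as lower.

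After quantile normalization the ppi2 spread came mainly from pair 1. As a multiple of the sample median, ppi2 pair 4, at 205 and 203, stood about as high as pair 1, at 207 and 193. The deposited intensities of pair 1, 47.9 and 45.0, exceeded those of the other ppi2 samples by less than the normalized values do. This is because quantile normalization replaces each value by the mean of its rank, and steps between neighbouring ranks are wide at the bright end. Without ppi2 pair 1 the log2 difference was 3.88 ± 0.08 (SE), or 14.7-fold. Averaging narrowed the WT spread, since WT sample 1 was at a log2 level of 1.40 and WT sample 2 at 0.86. Over the 8 WT samples taken singly the SD was 0.159 on the log2 scale. It was smaller than in all but 1.93% of the 3156 probes with a WT sample above the floor, for which the median was 0.732. That set included dim probes, some with WT samples at the floor, so it is no comparison with probes of like brightness. The WT levels were also among the values used to choose the gene. Over the 8 ppi2 samples the SD was 0.425, against a median of 0.335 over 3034 probes.

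After normalization AT2G46220 was 17.3-fold higher in ppi2 against WT pairs 1 and 2, and 16.9-fold higher against WT pairs 3 and 4. More than 16-fold higher levels in ppi2 were found for 19 probes (0.552%), AT2G46220 among them. That cut lies just under the 17.1-fold of AT2G46220. The gene fell below the cut in some other settings, such as 13.5-fold after centring on sample medians and 11.3-fold with each sample divided by its 90th percentile. In 12 of these 19 probes at least 1 WT sample was at the floor of the scale, and the size of such a rise then depends on where the floor is set. AT2G46220 was not near it in any sample, and its difference was the same to 2 decimals with the floor at the 25th or the 1st percentile of intensities.

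Among all probes, 16 had a larger log2 difference than AT2G46220, 7 of them with a single listed gene, and all 16 were dimmer in both genotypes. The brightest of the other 18 probes past 16-fold had a WT level of 1.43, against 2.29 for AT2G46220, and 0 of them exceeded it in ppi2. The gene was chosen as bright and strongly raised, so its place among these probes is a description and no test. The gap between the lowest ppi2 pair and the highest WT pair was wider in 5 probes, among which AT1G72890 and AT1G06510 were the ones with a single listed gene. Both of these had WT samples at the floor, 7 of 8 for AT1G72890 and 4 of 8 for AT1G06510.

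A total of 154 other probes had a mean WT level above that of AT2G46220. Of these, 25 (16.2%) were higher and 90 (58.4%) were lower in ppi2 by limma with Benjamini-Hochberg adjustment, against 14.2% and 14.4% of all probes. Their median log2 difference was -1.78, against 4.10 for AT2G46220 and 0 over all probes. The largest rise among them was that of probe 4360, which has no listed gene, at 9.53-fold. Selecting probes by a high WT value favours those that are lower in the other genotype, so these counts describe the company of the gene in WT and are no test of it.

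**Figure D3:**
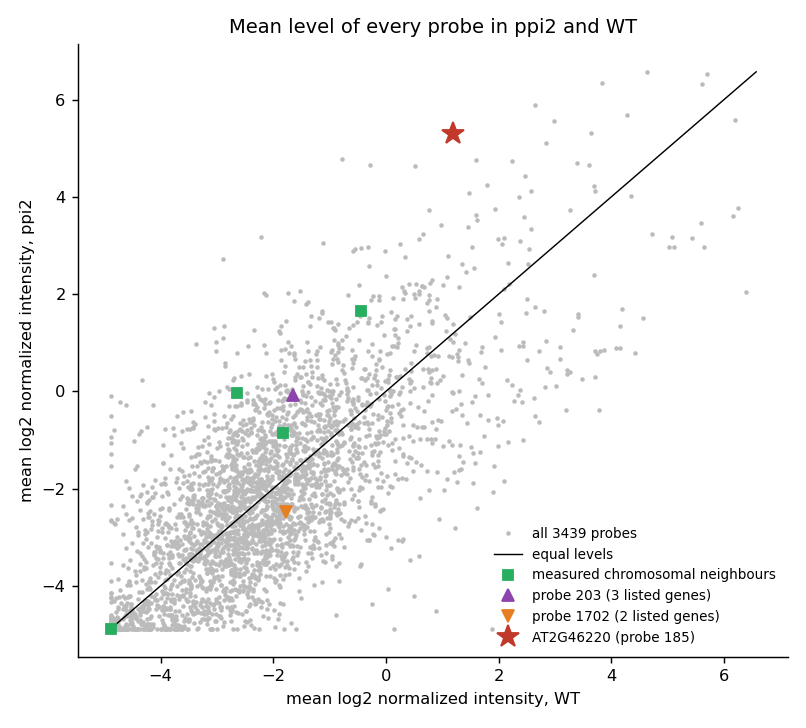
Mean log2 normalized intensity of each of the 3439 probes in WT (horizontal) and ppi2 (vertical), n = 4 averaged pairs per genotype, with a line of equal levels. AT2G46220 (star) lies at 1.19 in WT and 5.29 in ppi2, above every probe of equal or higher WT level in its distance from the line. Squares are its measured chromosomal neighbours and triangles are probes 203 and 1702.

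In ppi2, AT2G46220 was among the brightest signals of the array. Of the 20 probes with the lowest median rank in ppi2, 7 had a single listed gene, 6 had a median WT rank beyond 100 and 3 ranked lower in WT than AT2G46220. Higher mean ppi2 levels among genes with their own probe were those of PSBW, AT4G22830 and AT2G27290. PSBW, a small subunit of photosystem II, had deposited intensities of 46.6 to 100 in ppi2 and 5.54 to 30.0 in WT, with median ranks of 4 and 21.5. AT4G22830 had median ranks of 4 in ppi2 and 9 in WT, and its ranges overlapped, with 62.7 to 100 in ppi2 and 14.7 to 100 in WT. AT2G27290 had median ranks of 2 in ppi2 and 21 in WT, but ranged from 9.46 to 100 in ppi2 and from 12.0 to 27.7 in WT. Its ppi2 samples 3 and 4 lay below all WT samples and the other 6 above them. In WT all of these stood nearer the top of the array, at median ranks of 9 to 21.5, than AT2G46220 at 173.5.

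Next below it in ppi2, among genes with their own probe, were AT1G76450, AT4G17070 and NdhS. AT1G76450, known as a PsbP-domain protein, had median ranks of 14 in ppi2 and 695.5 in WT, with deposited intensities of 20.8 to 36.6 in ppi2 and 0.0694 to 2.48 in WT. NdhS, a subunit of the chloroplast NADH dehydrogenase-like complex, had median ranks of 17.5 in ppi2 and 71.5 in WT. In WT the genes next above AT2G46220 were PRA1.B6, AT5G11010 and AT1G74470, and the genes next below it were AT4G19900, AT1G32730 and AT5G65220. These 6 genes, at WT levels of 2.14 to 2.52, had ppi2 levels between 0.332 and 6.93, where AT2G46220 reached 39.2. PRA1.B6, a prenylated RAB acceptor, had a normalized intensity of 0.332 in ppi2 and 2.52 in WT. AT1G74470, the geranylgeranyl reductase that supplies the phytol tail of chlorophyll, had 4.41 in ppi2 and 2.47 in WT. Of the 6, PRA1.B6, AT5G11010 and AT1G32730 had lower values in ppi2 than in WT, and the other 3 had higher values.

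A second probe, 203, is listed for AT2G46220 together with AT1G79510 and AT1G16320, and was not used to choose the gene. A signal from it cannot be assigned to any of the 3 genes. Its deposited intensity was 1.40, 1.52, 1.41, 1.74, 1.36, 1.32, 0.728 and 0.646 in ppi2 samples 1 to 8. It was 0.440, 0.539, 0.566, 0.791, 0.260, 0.178, 0.0898 and 0.0182 in WT samples 1 to 8. Samples 7 and 8 were the dimmest in each genotype, and ppi2 samples 7 and 8 lay below WT sample 4. Probe 203 was 2.99-fold higher in ppi2 on average, but did not pass the test (log2 difference 1.58 ± 0.68 SE, 95% interval -0.04 to 3.21, limma adjusted p = 0.132).

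The averaged pairs of probe 203 did not overlap between the genotypes after normalization, as in 32.2% of all probes. Its WT spread rested on pair 4, at a log2 level of -3.71. Without that pair it was 1.86-fold higher in ppi2 (limma adjusted p = 0.0419), and it also passed when all samples were counted as replicates (limma adjusted p = 0.0202) and with a pseudocount of 1 (limma adjusted p = 0.044). Against WT pairs 1 and 2 it was 1.68-fold higher, and against WT pairs 3 and 4 5.34-fold.

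Probe 1702 is listed for AT1G79510 and AT1G16320 without AT2G46220. It had deposited intensities of 0.139 to 0.316 in ppi2, with a median of 0.217, and of 0.0454 to 0.332 in WT, with a median of 0.283. The genotypes overlapped, and the log2 difference was -0.70 ± 0.52 (SE, 95% interval -1.94 to 0.53, limma adjusted p = 0.364). In the values as deposited it was 0.00. The differences of probes 203 and 1702 were not tested against that of probe 185, which was chosen for its size. Whether the listed genes differ in expression, or whether the 3 probes differ in what they bind, cannot be told apart with these signals.

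**Figure D4:**
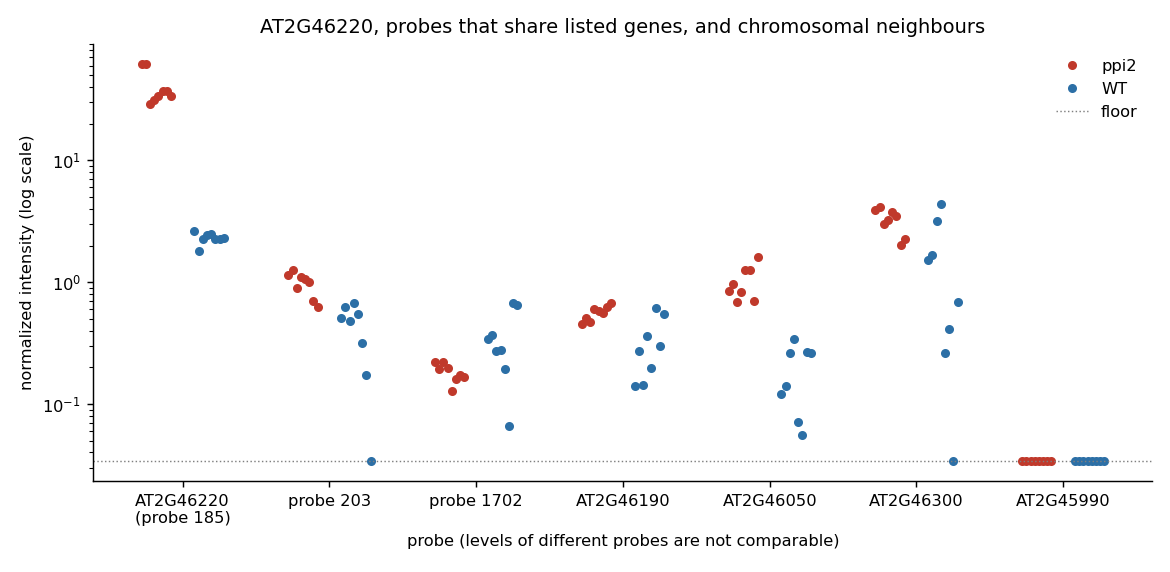
Normalized intensity (log axis) of AT2G46220, of probes 203 and 1702 and of the 4 measured chromosomal neighbours, with ppi2 samples in red left of WT samples in blue and the floor as a dotted line. Samples run from 1 to 8 within each group. AT2G46190 and AT2G46050 passed the test as higher in ppi2, although WT samples 6 and 8 of AT2G46190 lie within its ppi2 range. The call of AT2G46190 was lost in 8 of 23 alternatives. AT2G46300 also overlaps between the genotypes, and AT2G45990 is listed at 0 in all 16 samples.

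Of the 100 genes that the RefSeq table places nearest to AT2G46220, 50 on each side, 4 had a probe of their own. In the test over all probes 2 of the 4 rose in ppi2, 0 fell and 2 did not pass, where 14.2% of all probes rose. AT2G46190, at 10 genes' distance, had deposited intensities of 0.563 to 0.959 in ppi2 and 0.125 to 0.420 in WT, with no overlap. After normalization WT samples 6 and 8, at 0.611 and 0.548, lay within the ppi2 range of 0.452 to 0.672. It rose 1.97-fold (log2 difference 0.98 ± 0.25 SE, limma adjusted p = 0.0279). That call was lost in 8 of 23 alternatives, among them each fit that left out 1 ppi2 pair (limma adjusted p = 0.0512 to 0.0767), the fit without WT pair 2 (0.0577) and cyclic loess (0.0961). A random block for the sample pairs gave a limma adjusted p = 0.176.

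AT2G46050, at 24 genes' distance, had 0.731 to 1.61 in ppi2 and 0.0382 to 0.393 in WT, again without overlap. It rose 6.12-fold (log2 difference 2.61 ± 0.52 SE, limma adjusted p = 0.011), and the call was lost only with the replicate block (limma adjusted p = 0.0512). AT2G46300, at 11 genes' distance, had deposited intensities of 2.01 to 4.27 in ppi2 and 0.00989 to 5.69 in WT. It was 4.24-fold higher in ppi2 on average but did not pass (2.08 ± 1.01 SE, 95% interval -0.34 to 4.50, limma adjusted p = 0.176). WT samples 3 and 4, at 3.76 and 5.69, were as bright as ppi2, and WT samples 5 to 8, at 0.261 or less, were dimmer. Without WT pair 2 it passed at 7.28-fold (limma adjusted p = 0.0447), and against WT pairs 3 and 4 alone it was 13.97-fold higher (limma adjusted p = 0.003). AT2G45990, at 30 genes' distance, was listed at 0 in all 16 samples.

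Likeness to AT2G46220 was measured by Pearson's r of the log2 levels over the 16 samples, among the 329 other probes with a single listed gene and a brighter-genotype level above the median of all probes. The measure mostly reflects the step between the genotypes, which all samples share, and r exceeded 0.9 for 25 of the 329 probes, with a median of 0.373. The highest values were those of AT1G72890 (0.988), AT1G06510 (0.972), AT3G27550 (0.967), AT4G17070 (0.964), chr31 (0.960), AT5G40030 (0.957), AT4G12270 (0.955) and AT2G46850 (0.948). The name chr31 stands for the chromatin remodeling gene AT1G05490. On the deposited values 5 of these 8 genes were again among the top 8, and the r of all 8 was 0.954 to 0.986. AT1G72890, chr31, AT4G12270 and AT1G06510 had 7, 6, 5 and 4 of their 8 WT samples at the floor. That flattens their WT values, and the floor was applied to the deposited values too.

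Of these 8 genes only AT4G17070 was also close to AT2G46220 in level. Its deposited intensities were 15.9 to 36.2 in ppi2, with a median of 33.9, and 2.21 to 6.98 in WT, with a median of 4.79. Its median rank was 12 in ppi2 and 83.5 in WT, and its level was 5.67-fold higher in ppi2. In root mean square distance of log2 levels over the 16 samples it came nearest, at 0.915. NdhS (1.27), AT1G51350 (1.35), CCL (1.93) and AT1G76450 (1.97) followed. These genes were picked for their values, so no test is given for them.

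When the mean of each genotype was removed, so that variation within ppi2 and within WT remained, the highest r to AT2G46220 were 0.611 for TCP15, 0.512 for AT1G01080, 0.498 for AT4G12270, 0.443 for AT4G39760 and 0.420 for AT1G03660. The median over the 329 probes was 0.00. On the deposited values 1 of these 5 genes was again among the top 5, so this ranking depended on the scaling. TCP15 and AT1G01080 were both brightest in sample 1 of each genotype, far above its partner, sample 2. For TCP15, samples 1 and 2 had deposited intensities of 0.618 and 0.257 in ppi2 and 0.737 and 0.216 in WT. For AT1G01080 they had 0.940 and 0.501 in ppi2 and 0.882 and 0.239 in WT. How far the r of these genes rests on those samples was not tested. AT4G17070 had an r of 0.366 within the genotypes, and AT1G72890, which had the highest r over all samples, had 0.07.

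The antenna and photosystem list, which stands for green tissue and the proteins that chloroplasts import in large amounts, had 4 of its 35 genes measured by a probe of their own. Of the 4, 1 rose in ppi2, 2 fell and 1 did not pass the test, with a median log2 difference of -1.26, against 14.2% higher and 14.4% lower among all probes. LHB1B2 (LHCB1.5), a chlorophyll-binding antenna protein, ran opposite to AT2G46220, with 1.80 to 3.19 in ppi2 and 11.4 to 23.6 in WT and median ranks of 213.5 and 23. PSAN, a subunit of photosystem I, had a median intensity of 0.831 in ppi2 and 3.70 in WT. PSBW rose (log2 difference 2.50 ± 0.43 SE, limma adjusted p = 0.00717), but did not pass after centring on the sample medians (0.0705) or scaling to the 90th percentile (0.11). PSBY, a small protein of photosystem II, had a log2 difference of 0.17 ± 0.41 (SE, limma adjusted p = 0.829), and its sign turned with scaling to the 90th percentile (-0.14), against WT pairs 3 and 4 alone (-0.16) and without WT pair 2 (-0.11). None of the 10 chloroplast import genes (Toc159 among them) or the 4 cytosolic housekeeping genes of the lists had a probe of its own, so the mutated gene gave no check of the labels.

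Over all probes, 488 were called higher and 496 lower in ppi2, a share of 49.6% higher. In the values as deposited 647 were higher and 235 lower (73.4% higher), and with each sample divided by its 90th percentile 383 were higher and 676 lower (36.2%). AT2G46220 was higher in ppi2 in all 23 alternatives, by 11.3-fold to 21.7-fold. As deposited, the log2 difference of the median probe was 0.30, and with the 90th percentile it was -0.18. Relative to that median AT2G46220 was 4.14 and 3.68 higher, against 4.10 after quantile normalization.

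**Figure D5:**
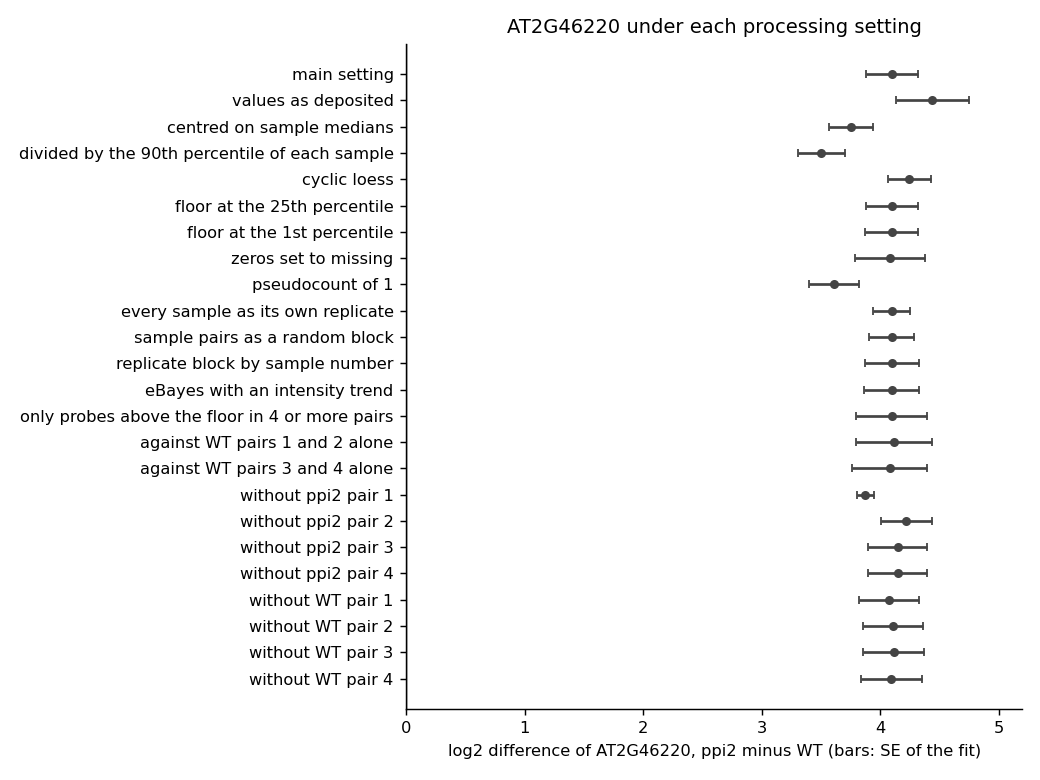
Log2 difference of AT2G46220 (ppi2 minus WT) under the main setting and 23 alternatives, with bars for the SE of each fit. The values lie between 3.50 and 4.44, and the lowest is that with each sample divided by its 90th percentile.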

How the data were processed

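RNA of 8 ppi2 and 8 WT samples was measured on an expression array. The authors deposited 1 intensity per probe and sample; the sources used here do not give how spots were corrected or scaled. The deposited values were linear, never below 0 and ended at 100. Array signals carry no depth, so the number of samples limits the precision. The platform annotation lists 1 gene for 692 probes, several for 870 and none for 1877. Probes with several were left without a gene name.

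Sample medians over probes above 0 spanned 1.70 (log2), above the limit of 0.2, so values were quantile-normalized. Values up to the 5th percentile of positive intensities, 0.0338, were set to that floor. Levels were averaged over consecutive samples and fitted with limma 3.58.1 in R 4.3.3 (lmFit, eBayes), with 6 residual degrees of freedom and Benjamini-Hochberg adjustment over all 3439 probes at 0.05. The fit and the adjustment were tested on simulated pair levels. That test did not cover the normalization, the floor or the averaging.

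The gene, lists and alternatives were chosen with earlier results of these data known. Named genes were AT2G46220, measured genes among the nearest 100, genes most alike or next to it in level, brighter genes and list members. Relatives were to be found by RefSeq description, which the table lacks, so probes sharing its listed genes were used, after their values had been seen. No sequences or coordinates are shown.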

Additional observations from a re-analysis of the deposited data

Results flagged for a closer look

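Samples or averaged pairs far from the rest of their group were looked for in 76 groups, where a rate of 1 in 20 would give 3.8, and 7 were found. AT2G46220 itself was lowest in WT sample 2, at a log2 level of 0.857 and rank 221, while the other WT samples ranked 151 to 176. Level and rank were flagged separately, although both come from the same value. The partner of WT sample 2, WT sample 1, ranked 151, the highest of WT. Probe 203 was at a log2 level of -3.71 in WT pair 4, far below the other WT pairs. PSBW was at 2.50 in WT pair 1, below the other WT pairs. AT2G27290 was at 3.02 in ppi2 pair 2, below the other ppi2 pairs. AT1G72890 was at -4.62 in WT pair 2 and chr31 at -3.79 in WT pair 4, with the remaining WT pairs of both genes at the floor of -4.89. Since any value stands out beside 3 ties, the stated rate is not valid for groups at the floor. The count of 7 is thus no evidence of an excess over 3.8.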

How the results depend on the processing

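The log2 difference of AT2G46220 stayed within 0.324, the SD between pairs, of its 4.10 in 19 of 23 alternatives. Several of these 19 could not move it. Other floors, other ways of counting or blocking samples, an intensity trend in the variance and the probe filter leave its mean difference unchanged. Among changes of scaling or transformation, cyclic loess gave 4.25 and zeros set to missing gave 4.08, within the limit. Beyond it were 4.44 in the values as deposited and 3.75 after centring on sample medians. Likewise beyond it were 3.50 with each sample divided by its 90th percentile and 3.61 with a pseudocount of 1. Leaving out 1 averaged pair gave 3.88 to 4.22. Its median rank among the 692 probes with a single listed gene was 4.0 in ppi2 and 28.5 in WT. The number of probes called, 984, was 686 to 1087 without 1 pair and 1616 when all samples counted as replicates, which treats close samples as independent. The deviations of same-numbered pairs of the genotypes correlated at 0.381, 0.307, 0.0313 and 0.330. The main fit did not use the numbers to pair the genotypes. Pair 3 showed almost no such correlation but the other pairs did, so a pairing by number remains possible. With the replicate block 846 probes were called, AT2G46220 stayed at 4.10, and AT2G46050 lost its call. No call of a tested gene named here reversed. The dim end of the scale limits probe 203 and AT2G46300, which had WT samples at the floor. It also limits the likeness of AT1G72890, chr31, AT4G12270 and AT1G06510 to AT2G46220.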
